A study of Mus musculus with 18 samples.

Results

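The genes described here are 10 components of the tight junction, namely the claudins Cldn1, Cldn2, Cldn3, Cldn4, Cldn7, Cldn8, Cldn15 and Cldn23, together with occludin (Ocln) and the scaffold gene Tjp1. They were chosen by symbol from the 36757 genes of the count table, and all 10 were found. RNA sequencing covered 18 libraries in 6 groups of 3, all from C57BL/6 mice that were 6 to 8 weeks old when treatment began. The libraries labelled wild type come from RNF138fl/fl mice, which carry the floxed allele, and the others are labelled RNF138-/-. The colitis groups received 2% dextran sulfate sodium (DSS) in drinking water for 7 days and then 14 days of plain water, with the cycle repeated, and colorectal tissue was taken 4 weeks after the last DSS. The groups with colitis-associated colorectal cancer (CAC) were first injected with the carcinogen azoxymethane (AOM, 10 mg/kg), with DSS cycles from 4 days later. The organoid groups were grown in matrigel from tumor-bearing pieces of CAC intestine. Every group was thus exposed to DSS, and no untreated colon is among the libraries. The driver of the deletion, and whether each library is 1 mouse, are not given in the sources used here, so the p-values measure the spread between libraries, which may be technical.

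Tight junctions seal the space between neighbouring epithelial cells near their apical edge. Claudins are the membrane proteins that set what passes: some, such as claudin-3, claudin-4 and claudin-8, tighten the barrier, whereas claudin-2 and claudin-15 form channels for cations and water. Occludin is a membrane protein of a different family that tunes the barrier, and the Tjp1 product (ZO-1) ties these proteins to the actin cytoskeleton. In the colon, claudin make-up differs between crypt and surface cells and shifts in inflammation and in tumors.

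Total counts were between 11514716 and 24390082 per library. Rnf138, the targeted gene, was not called lower in any model: it had 18.8 ± 0.757 CPM (TMM-normalized counts-per-million, SD, n = 3) in the colitis libraries labelled RNF138-/- against 19.6 ± 4.95, 43.5 ± 3.4 against 25.4 ± 3.42 in CAC, and 46.9 ± 3.81 against 48.9 ± 9.78 in organoids. In CAC it was higher in the libraries labelled RNF138-/-, short of 2-fold (log2 fold change 0.72, edgeR, adjusted p = 0.0426). The count covers the whole gene and the deleted exons are not given, so this does not test the deletion, and the groups are called by their labels throughout. CAC wild type replicate 3 stood apart from the other CAC wild type libraries, with a summed 14404 CPM of the 8 colonocyte markers against 2754 and 2285, and it was kept. In the organoids, the 10 epithelium markers were detected but did not hold alike. Epcam had 826 to 1623 CPM against 1189 to 2176 in tissue, and Krt18 had 614 to 1831 against 334 to 702. Lgals4 had 365 to 661 against 915 to 4595, Vil1 94 to 201 against 309 to 1136, and Cdx2 2.96 to 14.6 against 3.39 to 240. The 8 colonocyte markers summed to 259.6 to 622.1 CPM against 152.3 to 14404 in tissue (among them Car1 at 126 to 339, Krt20 at 106 to 267 and Car4 at 0.135 to 0.842). The 7 fibroblast markers summed to 9167 to 50097 CPM against 957.3 to 1777 in tissue. The 4 Y-linked genes were at 0 in all 3 wild type organoid libraries and at a summed 241.7 to 281.2 CPM in those labelled RNF138-/-, so sex and genotype cannot be told apart there.

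The 10 genes lie on 7 chromosomes of mm10, with Cldn3, Cldn4 and Cldn15 on chromosome 5, Cldn1 and Cldn8 on chromosome 16, and Cldn2 on the X chromosome (chrX:139800828-139811386, plus strand). Cldn4 (chr5:134945119-134946934, minus strand) and Cldn3 (chr5:134986214-134987472, plus strand) each consist of a single exon and are close neighbours, and Cldn15 spans chr5:136966616-136975858 on the plus strand. Of the 10, only Cldn3 shares exonic bases with another gene, 40 bases with the antisense gene Wbscr25, and whether strand was used in counting is not given in the sources used here. The 250 bases before the transcription start of RefSeq (GRCm38.p6) are shown for Cldn15 and Cldn4, which the comparisons below turn on, and for Cldn2, which is set beside Cldn15 as the other channel claudin, 5′ to 3′ on the strand of the gene, with matches to the AP-1 motif TGANTCA and to the CDX motif TTTATG (either strand) in capitals.
Cldn2 (chrX:139800558-139800807, plus strand): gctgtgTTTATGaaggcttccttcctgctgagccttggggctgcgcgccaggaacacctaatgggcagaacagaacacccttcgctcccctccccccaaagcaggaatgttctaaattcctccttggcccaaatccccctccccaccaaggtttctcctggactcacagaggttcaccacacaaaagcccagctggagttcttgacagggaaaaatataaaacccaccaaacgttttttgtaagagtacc
Cldn15 (chr5:136967619-136967868, plus strand): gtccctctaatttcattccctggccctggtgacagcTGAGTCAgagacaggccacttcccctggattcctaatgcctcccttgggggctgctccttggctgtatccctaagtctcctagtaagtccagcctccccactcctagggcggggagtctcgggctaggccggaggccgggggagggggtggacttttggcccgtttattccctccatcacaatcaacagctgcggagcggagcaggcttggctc
Cldn4 (chr5:134946935-134947184, minus strand): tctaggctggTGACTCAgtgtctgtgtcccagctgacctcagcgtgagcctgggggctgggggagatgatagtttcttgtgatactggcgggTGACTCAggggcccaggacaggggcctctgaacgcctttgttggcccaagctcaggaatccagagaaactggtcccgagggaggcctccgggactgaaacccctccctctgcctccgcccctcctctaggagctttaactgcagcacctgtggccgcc
The Cldn2 window holds 1 CDX match, 244 bases before the start, and no AP-1 match, whereas the Cldn15 window holds 1 AP-1 match at 214 bases and the Cldn4 window 2 AP-1 matches at 240 and 158 bases, with no CDX match in either. Over 32851 mouse promoters of the same length, 6.75% hold the AP-1 motif and 10.8% the CDX motif. The windows of the other members matched in the same table (8 of 10, without Cldn8 and Cldn23) hold neither motif. An E-box CAGGTG, the kind of site that Snail and Zeb factors bind, occurs in 17.2% of promoters and, among the members, in Cldn4, Cldn7 and Ocln. The GC box GGGCGG (SP1) occurs in 32.7% of promoters and in all 8 matched members but Cldn2, and the NF-kappaB consensus in 3.9% and in none of them. These are matches of letters and say nothing about binding.

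Levels between genes are compared per kilobase of exon. Cldn3 and Cldn7, a pair of barrier claudins of which Cldn7 also sits along the lateral membrane with Epcam, led in colitis tissue, at 338.7 ± 120.6 and 237.2 ± 6.777 CPM per kilobase in wild type, and their ranges overlapped. Cldn15 came next at 102.1 ± 7.258, apart from Cldn2 at 41.08 ± 3.052, and Cldn1 was lowest at 0.3181 ± 0.1326. In CAC tissue labelled RNF138-/- the order differed: Cldn4 was first at 212.2 ± 46.59 CPM per kilobase, overlapping with Cldn3 at 184.7 ± 6.842, Cldn2 stood at 77.89 ± 29.14, and Cldn15 was near the bottom at 6.972 ± 1.145. In organoids Cldn4 stood alone at the top, at 2308 ± 215.9 in wild type and 1266 ± 222.8 in those labelled RNF138-/-, and Cldn3 followed at 428.5 ± 52.04 and 271 ± 55.49.

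**Figure D1:**
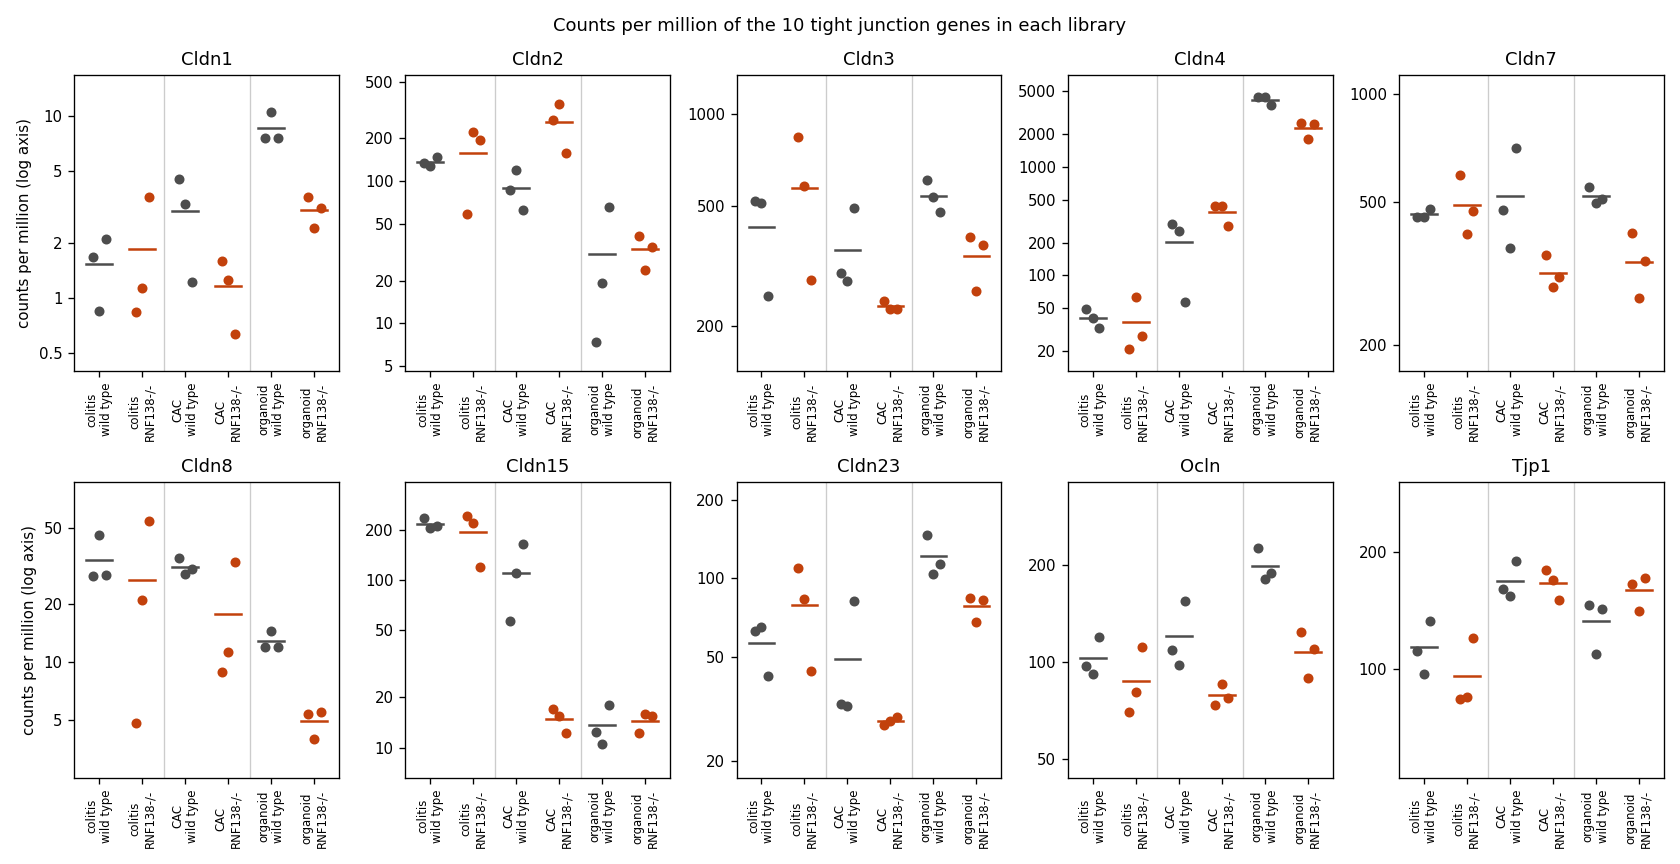
CPM (log axis, TMM over all 18 libraries) of each of the 10 genes, with 1 point per library, a line at the group mean, grey for libraries labelled wild type and orange for RNF138-/-. Cldn4 lies between 20.8 and 63.2 in colitis tissue and between 1833 and 4445 in organoids, and Cldn15 lies between 12.2 and 16.9 in CAC tissue labelled RNF138-/- against 56.8 to 165 in CAC wild type.

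Expressed as shares of the summed CPM per kilobase of the 8 claudins, Cldn4 made up 2.83% ± 0.261 (SD, n = 3) in wild type colitis, 15.6% ± 10.6 in wild type CAC, 31.5% ± 3.64 in CAC labelled RNF138-/-, and 74.6% ± 1.4 and 71.4% ± 0.889 in the organoid groups. Both CAC wild type libraries other than replicate 3 were near the upper end of their range of 3.33% to 22.3%, and replicate 3 gave its lower end. Cldn15, the sodium-conducting claudin, went the other way, from 13.2% ± 2.12 in wild type colitis to 6.54% ± 2.52 in wild type CAC, 1.04% ± 0.0582 in CAC labelled RNF138-/- and below 1% in the organoids. Cldn2 held 3.64% ± 1.68 of the sum in wild type CAC and 11.5% ± 3.44 in CAC labelled RNF138-/-. A share depends on the other claudins in the sum, and the sum itself was 668.4 to 918 CPM per kilobase in the tissue groups and 1774 and 3091 in the organoids.

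**Figure D2:**
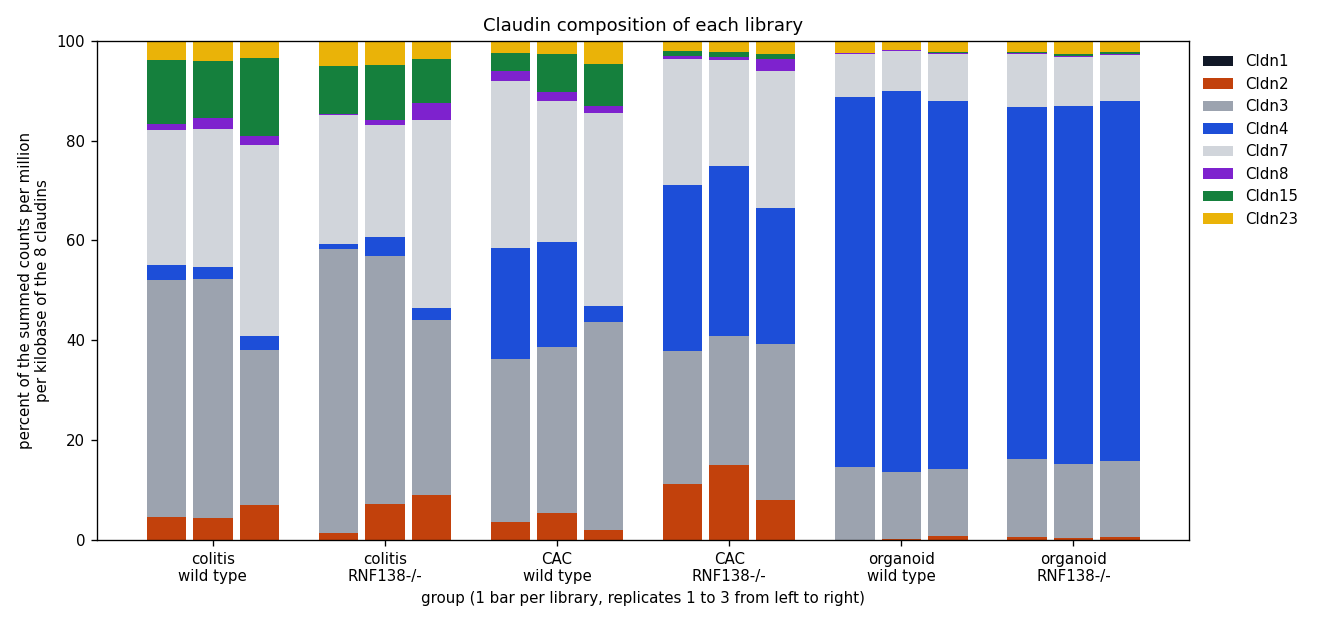
Share of each claudin (percent, stacked to 100) in the summed CPM per kilobase of the 8 claudins, with 1 bar per library. Cldn4 (blue) grows from 2.83% in wild type colitis to 74.6% in wild type organoids, while Cldn15 (green) shrinks from 13.2% to under 1%.

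The first comparison asked whether the junction genes differed between the genotypes in chronic colitis. None of the 10 did by edgeR: 0 were called at an adjusted p under 0.05 and at least 2-fold, 0 had an unadjusted p under 0.05, against 10.4% of all genes, and DESeq2 called 0. Of all 16623 genes tested, edgeR called 0.0902%, with or without the fold threshold, and DESeq2 called 205 higher and 138 lower. The groups did not overlap in 17.2% of genes, against 0 of 10 members. Cldn23, a claudin of the colon surface, had 62.8, 65 and 42.2 CPM in the wild type libraries and 110, 83.6 and 44.3 in those labelled RNF138-/-, and its log2 fold change of 0.48 (95% interval -0.28 to 1.23, edgeR, adjusted p = 0.686) was the one farthest from 0. Cldn8, a barrier claudin of the distal colon, had 28, 45.8 and 28.4 CPM against 4.84, 21 and 54.4. Its libraries labelled RNF138-/- thus spread from well below to above the wild type range, and the interval of its log2 fold change ran from -1.93 to 1.25. Cldn2 spread in the same way, with 135, 127 and 148 CPM against 59.1, 222 and 194. Ocln and Tjp1 had intervals of -0.75 to 0.28 and -0.74 to 0.26, so a 2-fold difference of either lies outside the interval, whereas those of Cldn1, Cldn2, Cldn3, Cldn4, Cldn8 and Cldn23 include it. With the replicate numbers as a replicate block, again 0 members were called, while the calls over all genes went from 3 higher and 12 lower to 38 and 51. Whether these numbers pair the colitis libraries is not settled by the check described in the processing.

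In CAC tissue, Cldn15 was lower in the libraries labelled RNF138-/-. It had 56.8, 110 and 165 CPM in wild type and 16.9, 15.3 and 12.2 in those labelled RNF138-/-, so the groups did not overlap, and the 3 wild type libraries differed among themselves more than the other 3 did. The log2 fold change was -2.96 (SE 0.41, 7.78-fold lower, edgeR, adjusted p = 0.0265). It was the only member called, 1 of 10, where 5.37% of the 17752 genes tested were called, and in bulk RNA fewer cells that express a gene and less RNA per cell cannot be told apart. The call was lost when any 1 of the libraries labelled RNF138-/- was left out, with an adjusted p of 0.0937, 0.126 and 0.0775 without replicate 1, 2 and 3, while the log2 fold change stayed between -3.28 and -2.53 over the 6 fits that left out 1 library. Over all genes, the calls likewise went from 97 higher and 857 lower to 0 and 0 without replicate 1 or 2 of those libraries and to 6 and 103 without replicate 3. Without CAC wild type replicate 3 it was -2.53 with an adjusted p of 0.0129, and with the Y-linked level as a covariate -2.49 with an adjusted p of 0.181.

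Cldn2, the claudin that opens a channel for cations and water, had 86.5, 120 and 62.4 CPM in wild type CAC and 270, 350 and 157 in CAC labelled RNF138-/-. The groups did not overlap. Its log2 fold change of 1.48 (SE 0.36) did not pass by edgeR (adjusted p = 0.0562), and did by DESeq2 (adjusted p = 0.00179). Since Cldn2 and Cldn15 lay on opposite sides, the ratio of the pair within a library, which does not depend on how the libraries are scaled, was computed from CPM per kilobase. It was 0.973, 0.701 and 0.241 in wild type CAC and 10.2, 14.6 and 8.24 in CAC labelled RNF138-/-, a difference of 4.29 between the mean log2 ratios. In colitis it was 0.368, 0.397 and 0.446 against 0.156, 0.652 and 1.04, and in organoids 0.379, 1.16 and 2.36 against 2.16, 0.955 and 1.44, with overlapping groups in both. The ratio was formed after both genes had been seen to differ and is given as a description.

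**Figure D3:**
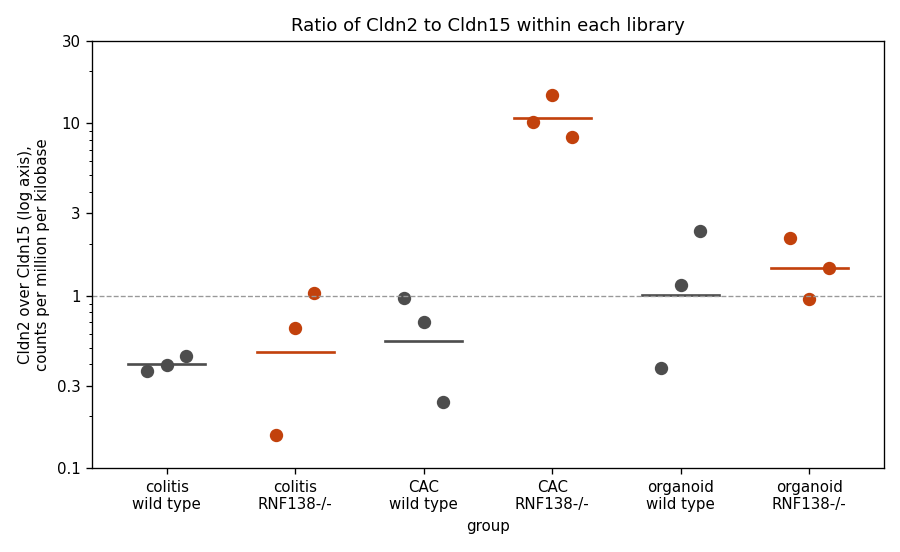
Ratio of Cldn2 to Cldn15 in CPM per kilobase (log axis) in each library, with 1 point per library and a line at the geometric mean of the group. The 3 CAC libraries labelled RNF138-/- lie between 8.24 and 14.6 and all other libraries between 0.156 and 2.36.

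The remaining members were not called in CAC. Cldn3 had 300, 282 and 490.5 CPM in wild type and 242.5, 228 and 227 in CAC labelled RNF138-/-, Cldn7 had 475, 373 and 706 against 356, 290 and 308, and Ocln had 109, 97.6 and 154 against 73.4, 85.7 and 77.3. For these and for Cldn23 and Cldn15 the groups did not overlap, all with the libraries labelled RNF138-/- below. Together with Cldn2, 6 of 10 members had groups that did not overlap, against 45.2% of all genes tested. By adjusted p alone, without the fold threshold, Cldn15 was again the only member, against 6.38% of genes, and 6 members had an unadjusted p under 0.05, against 33.8% of all genes. The log2 fold changes of Cldn3, Cldn7 and Ocln were -0.68, -0.76 and -0.66, with adjusted p-values of 0.117, 0.108 and 0.0843 by edgeR. CAC wild type replicate 3 held the highest value of each, and without it they were -0.352, -0.443 and -0.417, and Cldn23 was at -0.232. Cldn1 had 4.49, 3.29 and 1.23 CPM in wild type against 1.59, 1.25 and 0.633, with groups that overlapped. Its log2 fold change of -1.43 (edgeR, adjusted p = 0.124) was past 2-fold and rests on 13 to 73 counts. Cldn4 had 297, 258 and 56.7 CPM in wild type against 437, 432 and 288, and its log2 fold change of 0.87 (adjusted p = 0.301) moved to 0.446 without CAC wild type replicate 3, the library with 56.7. Tjp1 had 161, 154 and 190 CPM against 180, 170 and 150, with an interval of -0.44 to 0.30 under TMM scaling and a value of 0.852 under the epithelium scaling described next.

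Markers of several cell types also differed between the CAC groups, where fewer cells and less RNA per cell cannot be told apart. The summed CPM of the 10 epithelium markers was 10223 to 19313 in wild type CAC and 7565 to 9332 in CAC labelled RNF138-/-, with 3 of 10 called lower and a median log2 fold change of -1.10. These markers did not move alike: the means of Krt8 (4230 and 2020 CPM) and Lgals4 (3328 and 1285) lay far apart, whereas Krt18 had 648 and 665 and the groups overlapped for Epcam (-0.27) and Cdh1 (-0.22). The goblet markers summed to 13428 to 42685 against 1562 to 2617, the colonocyte markers to 2285 to 14404 against 152.3 to 433.2, the stem and progenitor markers to 122.1 to 636.8 against 1379 to 1720, and the smooth muscle markers to 1995 to 7423 against 61.12 to 148.5. None of the markers of these lists was at 0 in all libraries of either group. The sums of the fibroblast markers (1092 to 1767 against 957.3 to 1777) and of the endothelium markers (120.5 to 183.8 against 115.3 to 192.7) overlapped, with 0 markers called. Leukocyte markers summed to 1801 to 2794 against 695.5 to 1073 CPM but did not move alike. Of 10 tested, 3 were called lower and 0 higher. The groups lay apart with the libraries labelled RNF138-/- above in 3 and below in 4. The enteric neuron and glia markers summed to 18.97 to 43.98 against 6.054 to 9.81. The library measures separated the labels too: mitochondrial genes took 3.233% to 6% of the counts in wild type CAC against 2.57% to 3.107%, and the 10 most abundant genes 6.718% to 11.08% against 4.411% to 4.943%. The part of these in the members' values was not tested. When each library was scaled to its epithelium markers instead of to all genes, the median log2 fold change of all genes moved from 0.00564 to 0.888, and the calls over all genes went from 97 higher and 857 lower to 3314 and 673. Under that scaling Cldn15 had a log2 fold change of -2.001 (adjusted p = 0.024) and Cldn2 of 2.28 (adjusted p = 0.031), and both were called. The values of Cldn3, Cldn7, Cldn8, Cldn23, Ocln and Tjp1 changed sign, to between 0.025 and 0.852, and none of them passed under either scaling.

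**Figure D4:**
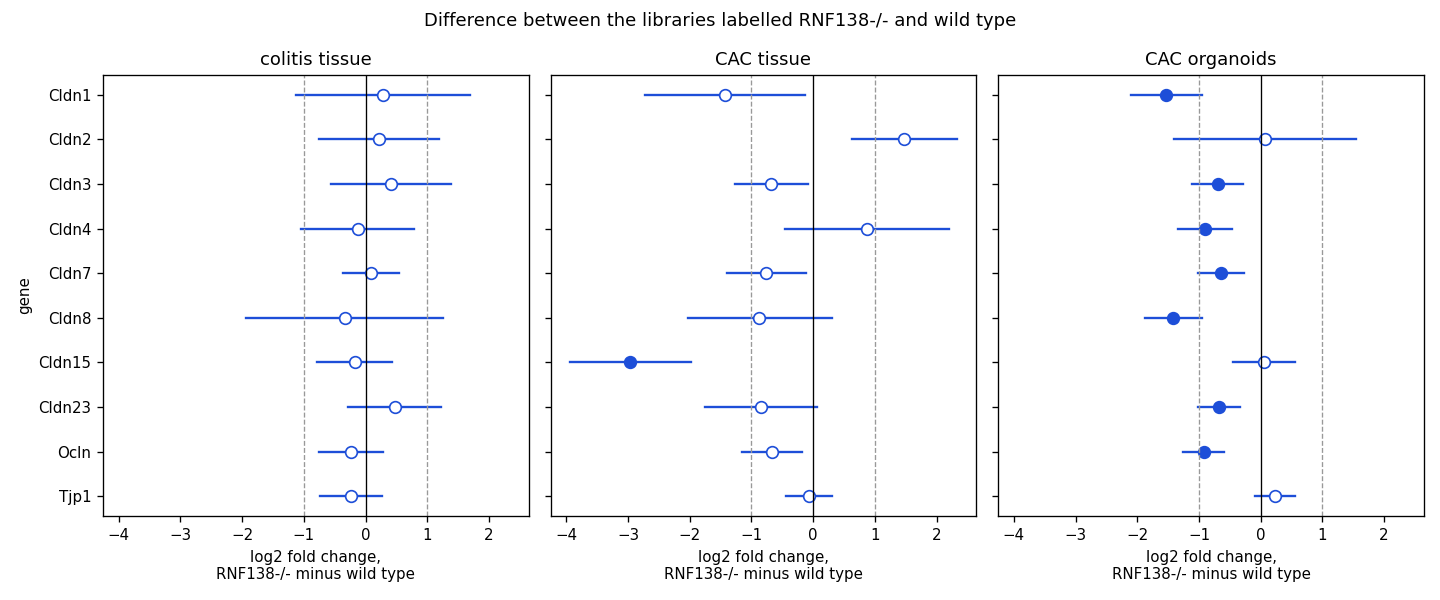
Log2 fold change of each member (RNF138-/- minus wild type, edgeR) with its 95% interval in colitis tissue, CAC tissue and CAC organoids, where filled points have an adjusted p under 0.05 and dashed lines mark 2-fold. Filled points are absent in colitis, are limited to Cldn15 (-2.96) in CAC, and number 7 in organoids, all below 0. With libraries scaled to epithelium markers, which moves the median of all genes from 0.00564 to 0.888 in CAC and from -0.0356 to 0.449 in organoids, Cldn3, Cldn7, Cldn8, Cldn23, Ocln and Tjp1 change sign in CAC and no member does under the smaller shift in organoids.

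In organoids, 7 of 10 members were lower in the libraries labelled RNF138-/- at an adjusted p under 0.05, where 35.5% of the 15294 genes tested passed that rule and 17.7% passed and were lower. Those 7 were also the members whose groups did not overlap, all with the libraries labelled RNF138-/- below, against 53.3% of all genes in either direction and 25.7% in that one. Cldn1 and Cldn8 were also past 2-fold, 2 of 10 members against 15% of genes. Cldn1, a barrier claudin that is scarce in these tissues, had 7.55, 10.5 and 7.55 CPM in wild type and 3.58, 2.43 and 3.13 in those labelled RNF138-/- (log2 fold change -1.53, SE 0.25, edgeR, adjusted p = 0.00426). Cldn8 had 12.1, 14.6 and 12 CPM against 5.4, 4.02 and 5.52 (log2 fold change -1.42, SE 0.20, edgeR, adjusted p = 0.00275). Both are low in organoids, at 42 to 132 and 74 to 210 counts.

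Cldn4, which binds the Clostridium perfringens enterotoxin besides sealing the junction, had 4445, 4390 and 3740 CPM in wild type organoids and 2546, 1833 and 2521 in those labelled RNF138-/-, which is -0.90 as a log2 fold change (SE 0.19, adjusted p = 0.00946 by edgeR). Ocln had 226, 181 and 188 CPM against 124, 89.2 and 109, a log2 fold change of -0.92 (SE 0.15, adjusted p = 0.00387). Cldn3 (-0.70), Cldn7 (-0.64) and Cldn23 (-0.67) passed as well, at 1.56-fold to 1.62-fold. The members that did not pass were the channel claudins and the scaffold gene. Cldn2 had 7.38, 19.1 and 65.9 CPM against 41.25, 23.6 and 34.6, so that the wild type organoids alone spanned the whole range, and the interval of its log2 fold change ran from -1.41 to 1.55. Cldn15 had 12.4, 10.5 and 17.9 CPM against 12.2, 15.8 and 15.4, with an interval of -0.45 to 0.55. Tjp1 had 146, 109 and 142 CPM against 166, 141 and 172, with a log2 fold change of 0.23 (adjusted p = 0.22).

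The fibroblast markers moved with the label in these cultures, at a summed 9167, 23388 and 9809 CPM over the wild type libraries and 40742 to 50097 in those labelled RNF138-/-, with 6 of 7 markers called higher. The epithelium markers summed to 9847 to 10779 against 5771 to 8500 CPM, and the stem and progenitor markers to 1168 to 1831 against 572.5 to 763.2, with 4 of 7 called lower. Mitochondrial genes took 1.064% to 1.339% of the counts in wild type organoids against 0.6948% to 0.8298%. The part of these in the members' values was not tested. After scaling to the epithelium markers, under which the median of all genes moved from -0.0356 to 0.449, no member changed sign, and Cldn1 alone was called (-1.10, adjusted p = 0.0236). Cldn8 had -0.97 (adjusted p = 0.0268), below 2-fold, and Tjp1 0.71 (adjusted p = 0.0487). Under that scaling Cldn3, Cldn4, Cldn7, Cldn23 and Ocln had log2 fold changes of -0.199 to -0.468 and adjusted p-values of 0.214 to 0.671, and the calls over all genes went from 1215 higher and 1077 lower to 2952 and 454. In the single fit of all 18 libraries neither Cldn1 (-1.486, adjusted p = 0.063) nor Cldn8 (-1.375, adjusted p = 0.136) was called, with folds close to those above.

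**Figure D5:**
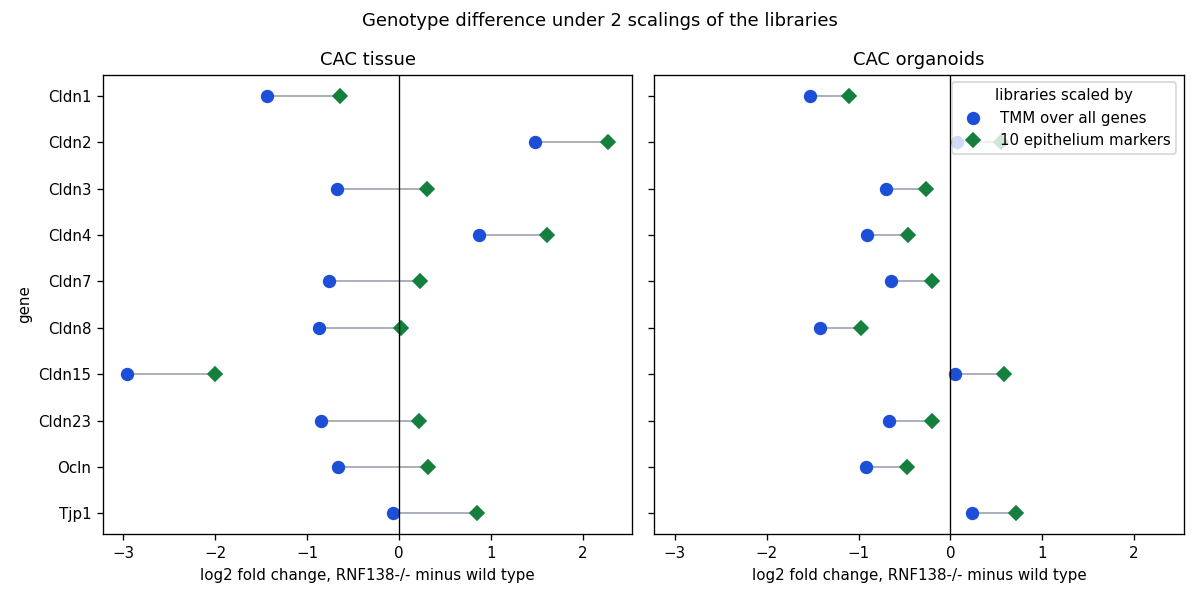
Log2 fold change of each member (RNF138-/- minus wild type) with libraries scaled by TMM over all genes (circles) and by 10 epithelium markers (diamonds), in CAC tissue and organoids. Every value shifts upward, by which Cldn3, Cldn7, Cldn8, Cldn23, Ocln and Tjp1 cross 0 in CAC, while Cldn15 stays at -2.001 or below. The shift of the median gene is smaller in organoids (-0.0356 to 0.449) than in CAC (0.00564 to 0.888), and no member crosses 0 there.

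Whether the genotype difference itself differed between the models was tested as an interaction in the fit of all 18 libraries. Cldn15 was the only member called in either test. Its genotype difference was lower in CAC than in colitis by 2.73 on the log2 scale (log2 difference -2.73, SE 0.46, edgeR, adjusted p = 0.00203), where it had 234, 205 and 211 CPM in wild type colitis against 242, 218 and 119 in colitis labelled RNF138-/-. It was higher in organoids than in CAC by 2.99 (SE 0.47, edgeR, adjusted p = 0.000517). The Y-linked genes were at 0 in wild type organoids and at 147.6 to 281.2 CPM in the other organoid and the CAC libraries. Sex therefore cannot be told apart from genotype in the comparison of organoids with CAC. Over all genes, 14.1% passed the first of these tests and 23.3% the second. The tests share the CAC libraries and are therefore not independent. For Cldn4, organoids against CAC gave a difference of -1.78 (adjusted p = 0.0596), and for Cldn2, CAC against colitis gave 1.31 (adjusted p = 0.303), so that neither was shown to differ.

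The models were also compared within each genotype in that fit, where model and experiment cannot be told apart. Cldn4 rose in CAC against colitis in both genotypes: from 49.1, 40.2 and 32.3 CPM to 297, 258 and 56.7 in wild type (log2 fold change 2.33, SE 0.49, edgeR, adjusted p = 0.00331), and from 20.8, 63.2 and 27.25 to 437, 432 and 288 in those labelled RNF138-/- (3.38, SE 0.51, adjusted p = 6.34e-05). Of 10 members, 1 was called in wild type, against 13.6% of 19390 genes, and 4 in those labelled RNF138-/-, against 37.1%. The other 3 called in the latter were lower in CAC: Cldn15 (-3.70, SE 0.35, adjusted p = 1.94e-06), Cldn23 (-1.47, SE 0.34, adjusted p = 0.00194) and Cldn3 (-1.29, SE 0.34, adjusted p = 0.00489). Cldn23 fell there from 110, 83.6 and 44.3 CPM to 27.6, 28.5 and 29.5. In wild type, Cldn15 had a log2 fold change of -0.97 (adjusted p = 0.0411), just short of 2-fold. With 1 library left out it ran from -0.683 (adjusted p = 0.13, without CAC wild type replicate 1) to -1.377 (adjusted p = 0.00578, without replicate 3, whose 165 CPM was the nearest to colitis), and the other 4 such fits had adjusted p-values of 0.0603 to 0.105. Without colitis replicate 1 of the libraries labelled RNF138-/-, the one with 845 CPM, Cldn3 had -0.895 and was no longer called. Tjp1 was higher in CAC in both genotypes without reaching 2-fold, at 0.57 (adjusted p = 0.0336) and 0.80 (adjusted p = 0.00149). The cell type markers differed between the models as well. The colonocyte markers summed to 5242 to 6911 CPM in wild type colitis and 7315 to 8608 in colitis labelled RNF138-/-, against 2285 to 14404 and 152.3 to 433.2 in CAC, and the stem and progenitor markers to 178 to 202.3 and 145.6 to 172.6, against 122.1 to 636.8 and 1379 to 1720. Their part in the members' values was not tested.

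Organoids differed from CAC tissue in 5 of 10 members in each genotype, against 44.3% of genes in wild type and 44.4% in those labelled RNF138-/-. The median of all genes lay at -0.135 and -0.223 in these contrasts. In wild type, the Y-linked genes were at 0 in organoids and summed to 187.9 to 228.4 CPM in CAC, so sex and model cannot be told apart there. Cldn4 rose by 4.36 (SE 0.53, 20.5-fold, adjusted p = 5.13e-06) in wild type and by 2.58 (SE 0.49, 5.96-fold, adjusted p = 0.000307) in those labelled RNF138-/-. Cldn23 rose by 1.30 and 1.46, with adjusted p-values of 0.00364 and 0.00174. Cldn2 fell by 1.55 in wild type and fell by 2.97 in those labelled RNF138-/-, with adjusted p-values of 0.0335 and 0.000731, and the first of these calls was lost without CAC replicate 1 or 2 or organoid replicate 1 or 2 of the wild type libraries (adjusted p 0.0521 to 0.119). With 1 library left out the wild type value ran from -2.78 (without organoid replicate 3) to -1.08 (without organoid replicate 1), and the wild type groups overlapped. Cldn1 rose by 1.49 and 1.39 (adjusted p 0.0222 and 0.0375), and these calls were also lost without any of 3 libraries in wild type and of 4 in those labelled RNF138-/-. Cldn15 fell in wild type by 3.02 (SE 0.34, adjusted p = 2.9e-06). In those labelled RNF138-/-, the CAC tissue had 16.9, 15.3 and 12.2 CPM and the organoids 12.2, 15.8 and 15.4, a difference of -0.03 (interval -0.72 to 0.65). Cldn8 fell in those labelled RNF138-/- by 1.85 (adjusted p = 0.0163), a call that was lost without CAC replicate 3 (33.4 CPM, log2 fold change -1.04) or without organoid replicate 2 (adjusted p = 0.0601). In wild type Cldn8 had -1.28 (edgeR, adjusted p = 0.0706), which was not called, and the groups did not overlap. The goblet markers summed to 98.89 to 416.1 CPM in wild type organoids and 133.1 to 155.2 in those labelled RNF138-/-, against 13428 to 42685 and 1562 to 2617 in CAC. The fibroblast markers summed to 9167 to 50097 in organoids against 957.3 to 1777 in CAC. The part of these markers in the members' values was not tested.

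Other genes of the junction were read from 6 lists with 89 genes in the table. Between genotypes, edgeR called 0 of the 78 tested in colitis, where 17 had an unadjusted p under 0.05 (10.4% of all genes did) and DESeq2 called 1, a transcription factor. Over all genes tested, 4.83% were called lower and 0.546% higher in CAC, and 7.04% lower and 7.94% higher in organoids. The calls on these lists in CAC, given next, all ended (0 higher and 0 lower) when any 1 of the 3 libraries labelled RNF138-/- was left out and with the Y-linked covariate. Among 13 other membrane proteins of the junction, 3 were called lower and 0 higher in CAC labelled RNF138-/- with TMM scaling (1 and 1 with libraries scaled to the epithelium markers), namely Bves, Jam3 and Clmp, and the median of the list was -0.30. Bves, which muscle cells also express, had 55, 89 and 115 counts in the wild type libraries and 0, 1 and 4 in those labelled RNF138-/-. In organoids Jam2 (1.25), Clmp (1.22) and Jam3 (1.01) were called higher and Marveld2 (-1.31) lower, with a median of -0.35 over 12 tested. Marveld2 encodes tricellulin, which closes the points where cell corners meet, and it had 100.3, 109.7 and 102.9 CPM against 44.3, 37.1 and 48.4 (adjusted p = 0.00095). Of 22 plaque and polarity genes tested, 3 were called lower in CAC (1 lower and 3 higher under the epithelium scaling; Mylk -3.14, Mpdz -1.81, Prkcz -1.43, median of the list -0.20) and 3 higher in organoids (Mylk 1.47, Mpdz 1.27, Cgnl1 1.03, median 0.22). Mylk, myosin light chain kinase, is abundant in smooth muscle, and the smooth muscle markers were lower in CAC and higher in organoids with the same labels, with 6 of 6 called lower and 2 of 6 called higher. Their part in these values was not tested. Among 16 adherens junction and desmosome genes, edgeR with TMM called 0 in any of the genotype comparisons (1 higher in CAC and 1 in organoids under the epithelium scaling), with medians of -0.13, -0.33 and -0.10 in colitis, CAC and organoids, where 2, 5 and 5 had an unadjusted p under 0.05, against 10.4%, 33.8% and 47.4% of all genes, and DESeq2 called 0, 1 and 0.

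Claudins are held at the membrane and cut by a small set of surface proteins. Of the 6 listed, 0 were called in CAC by edgeR or DESeq2 (median -0.54, with an unadjusted p under 0.05 in 3), and 3 were called lower in organoids labelled RNF138-/- (median -0.95), among them the protease gene St14 (matriptase) at -1.26 and its inhibitor Spint1 at -1.01. Over all genes, 33.8% had such an unadjusted p in CAC and 7.04% were called lower in organoids. The 3 calls became 1 under the epithelium scaling, and the epithelium markers were lower in the same libraries, whose part in these values was not tested.

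Of 17 transcription factors known to act on claudin or occludin genes, 4 were called lower and 0 higher in CAC labelled RNF138-/- (median -0.56 over 16 tested, and 2 lower and 2 higher under the epithelium scaling), where 4.83% of all genes were lower: Cdx2 (-3.95, adjusted p = 0.0446), Klf4 (-2.64, adjusted p = 0.0409), Cdx1 (-1.28, adjusted p = 0.031) and Zeb1 (-1.16, adjusted p = 0.0474). Cdx2, which sets intestinal identity and can act on Cldn2, had 42.4, 90.9 and 240 CPM in wild type CAC and 14.1, 7.8 and 3.39 in CAC labelled RNF138-/-. Cldn2 and Cdx2 thus lay on opposite sides of the wild type values in these libraries. In organoids 3 were called higher, the junction repressors Snai1 (2.6), Zeb2 (1.71) and Zeb1 (1.63), and 3 lower, Grhl1 (-1.80), Ovol2 (-1.30) and Cdx2 (-1.24), with a median of 0.01. Snai1 had 11.1, 6.54 and 7.21 CPM in wild type organoids and 46.8, 57.1 and 51.9 in those labelled RNF138-/- (adjusted p = 0.000584). Fibroblasts also express Snai1, Zeb1 and Zeb2, and the fibroblast markers were higher in the same libraries, and their part in these values was not tested. In the other claudins, 5, 7 and 4 of 15 in the table passed the filter in colitis, CAC and organoids, 0 were called in the former pair of models by either tool (2 with an unadjusted p under 0.05 in each), and in organoids Cldn34c1 was called higher (2.18) and Cldn5, known as the endothelial claudin, lower (-3.01). The endothelium markers did not fall with Cldn5. They summed to 3.588 to 6.166 CPM in wild type organoids and 6.137 to 8.358 in those labelled RNF138-/-, and which cells held Cldn5 there was not tested.

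Scaling to the epithelium markers shifts the log2 fold changes upward, so that calls lower were lost and calls higher gained. In CAC the 80 genes tested went from 0 higher and 10 lower to 7 higher and 4 lower, where 18.7% of all genes were called higher and 3.79% lower under this scaling. The other membrane proteins went to 1 higher (Lsr, 1.73) and 1 lower, the plaque and polarity genes to 3 higher (Amot 2.19, Sympk 1.38 and Arhgef2 1.35) and 1 lower, the adherens junction and desmosome genes to 1 higher (Ctnnb1, 1.36), and the transcription factors to 2 higher (Grhl1 1.66 and Grhl2 1.34) and 2 lower. The adjusted p-values of these 7 were 0.037 to 0.0491, and they are named after their values were seen. Jam3 (-0.84), Clmp (-0.72), Mpdz (-0.84), Prkcz (-0.46) and Zeb1 (-0.20) were no longer called, while Bves (-5.24), Mylk (-2.02) and Klf4 (-1.63) were. Cdx1 and Cdx2 belong to the 10 epithelium markers that set this scale, so their values under it (-0.37 and -2.89 in CAC, -0.77 for Cdx2 in organoids) are partly fixed by the scaling itself. The same holds for Epcam of the surface protein list and Cdh1 of the adherens list. In organoids the 76 genes tested went from 10 higher and 8 lower to 12 higher and 3 lower, where 19.3% of all genes were called higher and 2.97% lower. Nectin1 (1.42) of the adherens list and the transcription factor gene Twist1 (1.41) were added as higher, and Marveld2 (-0.85), St14 (-0.82), Spint1 (-0.57) and Ovol2 (-0.85) were no longer called. With the replicate block, Cdx2 in CAC (adjusted p = 0.0872) and Ovol2 in organoids (adjusted p = 0.0583) were not called.

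How the members moved together was described over the 12 tissue libraries, which share model, genotype and cell composition, so no p is given. Cldn3 and Cldn23 had the highest Pearson correlation of log2 CPM (r = 0.955), and Cldn4 ran against Cldn15 (r = -0.855) and Cldn23 (r = -0.801). Cldn2 ran against Cldn7 (r = -0.807) and was weakly related to Tjp1 (r = 0.132). Among 12360 genes with a mean of at least 5 CPM, those most like Cldn4 were Rdh10 (r = 0.978), the simple-epithelium keratin gene Krt7 (0.976) and Hmox1 (0.97), and those most like Cldn15 included Edem1 (0.988) and Wscd2 (0.981). The gene nearest to Tjp1 was Patj (0.976), which encodes a polarity scaffold of the tight junction, and among the 3 nearest to Cldn3 was Crb3 (0.967), a small apical polarity protein. Ocln was nearest to Chmp4c (0.976), Cldn23 to Ier5 (0.989), Cldn7 to Endod1 (0.97) and Cldn2 to Ankrd26 (0.929). The least abundant members, Cldn8 and Cldn1, had the lowest such values, with Pde8b (0.884) and the immunoglobulin segment Igkv19-93 (0.909).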

How the data were processed

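Total RNA of 18 libraries was extracted with TRIzol (the paper also names RNeasy) and made into libraries with an Illumina TruSeq kit. The authors deposited whole-number read counts per gene without normalization. In the paper the genome is mm10, with Cufflinks and the annotation Gencode v.M8 as further inputs, and the submitters' processing notes list STAR 2.6.1d, HTSeq 0.11.2 and DESeq2. The strand setting is not given in the sources used here. A second deposited table holds the log2 fold changes and p-values of the authors' own comparisons and was not used. Gene identifiers were matched to GENCODE M21 (mm10) for 36700 genes (99.84%). Members and lists were chosen with earlier results of these data known.

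Counts were analysed with edgeR 4.0.16 in R 4.3.3 (filterByExpr, TMM, glmQLFit and glmQLFTest, two-sided, Benjamini-Hochberg over all genes tested). The genotypes were compared within each model in fits of 6 libraries, and a gene was called at an adjusted p under 0.05 and at least 2-fold, the thresholds of the study. Contrasts between models (called by the same rule) and interactions (adjusted p under 0.05, no fold threshold) came from 1 fit of all 18 libraries. CPM are TMM-normalized over all 18 libraries, and values per kilobase use the union of exons. Marker sums are sums of CPM.

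The total of each library, with a median of 17332367 counts, sets the counting error. All 10 members were named, and of each list at most the 4 genes with the largest absolute log2 fold change per comparison and direction among those called, and for each member, of the 3 genes with the highest Pearson correlation, those the text gives. Some genes that this rule names are not reported here. Cldn22 and Pals1 were not found in the table under these symbols, and Pals1 was read under its older symbol Mpp5. Alternatives were DESeq2 1.42.0, RLE normalization, 2 other filters on low counts, a replicate block, the Y-linked summed level as a covariate, 1 fit of all libraries, no fold threshold, each library left out in turn and, added after seeing the data, scaling each library by the median ratio of its 10 epithelium markers. Same-numbered libraries of the colitis groups had positive correlations of the deviations from the group means (0.262, 0.114 and 0.531 for the 3 numbers) and may be pairs. Such a pairing would rest on that correlation and not on a statement in the labels, and the main fits carried no replicate block. For replicates 1 and 2 of one group the best match in the other group was not the same number. The fits were tested on simulated counts with known changes before use. No pair of libraries of a group agreed within sampling noise (lowest chi-square per degree of freedom 8.05).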

Additional observations from a re-analysis of the deposited data

Results flagged for a closer look

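The genotype difference of Cldn15 differed between models by the interaction tests of the 18-library fit. Between CAC and colitis tissue the difference of the log2 fold changes was -2.73 (edgeR, adjusted p = 0.00203), and it ran from -3.09 to -2.33 over DESeq2, RLE normalization, no filter on low counts, the replicate block and the fits that left out 1 library, with an adjusted p of at most 0.00738. Between organoids and CAC tissue it was 2.99 (edgeR, adjusted p = 0.000517), running from 2.59 to 3.33 with an adjusted p of at most 0.00235 over the same kinds of fit. The Y-linked covariate and the epithelium scaling were not run for the interactions. All 3 CAC libraries labelled RNF138-/- lay below every CAC wild type library, whereas the colitis groups and the organoid groups overlapped. Both values rest on the same CAC libraries. For organoids against CAC, sex and genotype cannot be told apart, since the Y-linked genes were at 0 in the wild type organoids only. The summed goblet markers (1562 to 2617 CPM against 13428 to 42685 in wild type), colonocyte markers (152.3 to 433.2 against 2285 to 14404) and smooth muscle markers (61.12 to 148.5 against 1995 to 7423) were also lower in these CAC libraries, and their part in the interaction was not tested. Groups of 3 were not screened for single outlying libraries.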

How the results depend on the processing

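Over 938 member values under alternatives (for the interactions, only members with an unadjusted p under 0.05 and Cldn2 in CAC against colitis), 857 kept their direction and their side of the threshold, 22 lost a call, 21 gained one and 38 changed direction. The 1 member called between genotypes in CAC (Cldn15) became 2 with Cldn2 under DESeq2, with no filter on low counts, with a replicate block and with scaling to the epithelium list, and became 0 with the Y-linked covariate (Cldn15 -2.49, adjusted p = 0.181). The 2 members called in organoids became 1 with the epithelium scaling, 0 in the fit of all 18 libraries and 7 without the fold threshold. Counted over all 10 members, the interaction of CAC against colitis went from 1 to 3 members by DESeq2 (Cldn7 and Cldn23 added) and 2 with no filter (Cldn23), and that of organoids against CAC from 1 to 2 by DESeq2, with no filter and with the replicate block (Cldn4 added). The replicate block also raised the adjusted p of Cldn1 between organoids and CAC labelled RNF138-/- to 0.0513 and changed no other member call. Same-numbered CAC libraries correlated at 0.0259, 0.224 and 0.0758 and organoid libraries at -0.214, -0.0914 and 0.0729, so the numbers were not read as pairs, although each CAC library of one group correlated best with the same number of the other, a hint from the data and not from the design. Under the epithelium scaling, log2 fold changes in CAC turned to 0.306 (Cldn3), 0.228 (Cldn7), 0.025 (Cldn8), 0.214 (Cldn23), 0.313 (Ocln) and 0.852 (Tjp1), the last also to 0.079 with the Y-linked covariate, and wild type Cldn7 between organoids and CAC turned to -0.039 (DESeq2), -0.04 (RLE) and -0.015 (no filter). The cause of these changes was not tested.

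With 1 library left out, the members called ranged from 0 to 1 between genotypes in CAC (without CAC RNF138-/- replicate 3, Cldn8 at -1.66 was called in place of Cldn15), 1 to 2 for CAC against colitis in wild type, 3 to 5 for organoids against CAC in wild type, 3 to 5 in those labelled RNF138-/-, and 1 to 3 and 1 to 2 for the interactions. In such fits 1 call was gained and 0 were lost between genotypes in organoids. For CAC against colitis in those labelled RNF138-/-, 1 was lost and 0 were gained. Directions that turned had these ranges. Between genotypes in colitis they were -0.647 to 0.642 (Cldn1), -0.108 to 0.61 (Cldn2), -0.758 to 0.159 (Cldn4), -0.069 to 0.198 (Cldn7), -1.408 to 0.154 (Cldn8) and -0.362 to 0.075 (Cldn15), in CAC -0.131 to 0.053 (Tjp1), and in organoids -0.377 to 1.299 (Cldn2) and -0.092 to 0.291 (Cldn15). For CAC against colitis they were -0.122 to 0.324 (Cldn7) and -0.266 to 0.112 (Cldn8) in wild type and -1.042 to 0.168 (Cldn1), -1.404 to 0.401 (Cldn8) and -0.289 to 0.002 (Ocln) in those labelled RNF138-/-. For organoids against CAC they were -0.201 to 0.284 (Cldn7) in wild type and -0.048 to 0.245 (Cldn7), -0.169 to 0.079 (Cldn15) and -0.145 to 0.022 (Tjp1) in those labelled RNF138-/-. Over all genes, the calls between genotypes (higher and lower) went in colitis from 3 and 12 to 205 and 138 by DESeq2, 38 and 51 with the block and 90 and 85 with the Y-linked covariate, in CAC from 97 and 857 to 558 and 1906 by DESeq2, 0 and 0 with the covariate (2485 at an unadjusted p under 0.05), 0 and 0 without CAC RNF138-/- replicate 1 or 2 (5048 and 3900 at an unadjusted p under 0.05), 6 and 103 without replicate 3, 6 and 281 without wild type replicate 1, and 3314 and 673 with the epithelium scaling, and in organoids from 1215 and 1077 to 2952 and 454 with that scaling. Cldn1 and Cldn8 rest on few counts, 42 to 132 and 74 to 210 in organoids.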

Other observations

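Outside the 10 members, Cldn6 and Cldn18, claudins of embryonic and of gastric or airway epithelium, were near 0 in colitis tissue and detected in CAC. Cldn18 had 0 counts in all 6 colitis libraries, 15, 14 and 0 counts in wild type CAC and 11, 72 and 34 in CAC labelled RNF138-/-, so that the mean CPM was at least 3.03-fold higher than in colitis in wild type and at least 9.8-fold higher in those labelled RNF138-/-, with colitis set to the floor of 3 counts per library. Cldn6 had 73, 165 and 0 counts in wild type CAC and 8, 42 and 62 in CAC labelled RNF138-/-, against 0, 2 and 0 and 0, 0 and 0 in the colitis groups. In both genes the CAC library at 0 was wild type replicate 3, which was also low in Cldn4 (56.7 CPM) and Nectin4 (1.99 CPM against 34.2 and 26.2). Neither gene was above 7.75 CPM in a CAC library.

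Amotl2, an angiomotin family member that binds the junction plaque, was at 15.7 to 48.6 CPM in tissue and at 256 to 437 CPM in organoids, called higher in organoids than in CAC in both genotypes (log2 fold change 3.94 and 4.19).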
